A study of Mus musculus with 32 samples.

Results

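The Polycomb complex genes described here are 31 genes that encode subunits and partners of Polycomb repressive complexes 1 and 2 (PRC1 and PRC2). They were chosen by name, from what their proteins are known to be part of, among the 54233 rows of a bulk RNA-seq table of mouse ES (mES) cells driven toward primitive endoderm (PrE) by GATA6. Each of the 31 was in the table and had enough reads to be among the 15227 genes tested. The lowest number of reads for any member in any sample was 5.

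Cells of the KH2 line (strain C57BL/6) carried 1 copy of the transgene TRE:GATA6-DSREd2, in which a TET-responsive element switches on GATA6 and a red fluorescent protein when doxycycline (Dox) is given. The study sampled 8 time points with 4 replicates each, 32 samples in all. The 0 h samples were kept without Dox in 2i medium, which holds inhibitors of MEK and GSK3, and LIF. The 2, 4 and 8 h samples were in serum medium with LIF and 1 µg/ml Dox until collection, whereas the 16, 24, 48 and 96 h samples had Dox for 12 h and then serum medium without it. Any difference from 0 h is thus one of medium and of Dox at once, which cannot be told apart, all cells came from 1 engineered line, and every group carried the transgene. The study states that its replicates were independent experiments, without saying for these samples which steps were separate, and p-values measure the spread between these samples.

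Samples held between 3190108 and 12301732 reads on genes (median 8870662.5). A level is a normalized count, that is, a read count after the authors' scaling of each sample for depth. Replicates 1 and 2 formed one set and replicates 3 and 4 another: at the same time point, the chi-square of a pair of samples divided by its degrees of freedom, which is 1 where they differ by counting error alone, had a median of 1.57 over 16 pairs within a set and of 10.9 over 32 pairs across sets. The transgene row was at 0 in all 0 h samples and at 618 ± 110 (SD, n = 4) at 2 h. The summed level of 8 ES cell markers lay between 35233 and 41312 at 0 h and between 8139 and 9505 at 48 h. The largest part of that sum at 48 h was *Pou5f1*, with a mean of 9104 at 0 h and 6166 at 48 h. *Nanog* went from a mean of 5875 to 220. The sum of 8 PrE markers lay between 570.0 and 859 at 0 h and between 84747 and 156605 at 48 h. The 6 fibroblast markers, which feeder cells would bring, summed to between 25.8 and 86.9 at 0 h and to between 33.9 and 42.2 at 48 h.

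PRC2 places methyl groups on lysine 27 of histone H3 through the enzymes EZH1 and EZH2. PRC1 attaches ubiquitin to lysine 119 of histone H2A through RING1 and RNF2. Canonical PRC1 reads the PRC2 mark through CBX proteins and compacts chromatin through PHC proteins, whereas variant PRC1, built on RYBP or YAF2, is recruited without it. In ES cells both complexes sit mainly at CpG-rich promoters of silent developmental genes, and both are known to be needed for orderly differentiation.

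Promoter sequence, the 250 bases before and 50 bases from a transcript start, was at hand from RefSeq (GRCm38.p6) for 26 of the 31 members, 38 promoters in all. The median number of CpG dinucleotides in these promoters was 23.5, against 7 over all 32851 promoters of the same length. Of the 38 promoters, 33 lay above that median of 7, as did 48.6% of all promoters. The letters GATAA are the core of the sequence that GATA factors prefer. Searched on both strands, they were in 2 of the 38 promoters (of *Pcgf2* and a second start of *Pcgf5*) and in 25.4% of all. GCGGGAA, an E2F-type sequence searched likewise, was in 3 (of *Pcgf5*, *Phf19* and *Suz12*) and in 4.60% of all. Shares among promoters with a like number of CpG were not computed. Some of the 38 promoters overlap each other, such as those of *Bcor*. The promoters of the member with the largest fall (*Phc1*, chr6:122340178-122340477, minus strand, 9 CpG), of the member with the largest rise (*Pcgf5*, first start, chr19:36348079-36348378, plus strand, 34 CpG), and of the paired PRC2 enzymes that moved in opposite directions (*Ezh1*, chr11:101226414-101226713, minus strand, 23 CpG, and *Ezh2*, chr6:47594981-47595280, minus strand, 31 CpG) are shown 5′ to 3′ on the strand of the gene, with each CpG in capitals. Here the largest fall and rise are those against 0 h. By CpG the *Phc1* promoter was the sparsest of these, and the *Pcgf5* promoter the densest.
Phc1: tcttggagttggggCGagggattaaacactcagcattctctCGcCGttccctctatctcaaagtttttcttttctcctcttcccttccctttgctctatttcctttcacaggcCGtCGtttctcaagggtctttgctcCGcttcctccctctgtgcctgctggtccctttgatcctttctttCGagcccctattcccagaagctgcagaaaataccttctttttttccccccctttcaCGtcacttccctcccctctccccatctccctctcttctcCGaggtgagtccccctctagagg
Pcgf5: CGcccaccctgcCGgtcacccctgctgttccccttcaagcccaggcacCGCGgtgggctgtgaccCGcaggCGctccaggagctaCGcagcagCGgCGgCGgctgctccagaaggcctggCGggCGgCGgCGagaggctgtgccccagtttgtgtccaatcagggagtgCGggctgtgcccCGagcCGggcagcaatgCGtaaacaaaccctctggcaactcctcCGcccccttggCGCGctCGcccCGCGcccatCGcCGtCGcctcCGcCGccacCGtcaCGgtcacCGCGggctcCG
Ezh1: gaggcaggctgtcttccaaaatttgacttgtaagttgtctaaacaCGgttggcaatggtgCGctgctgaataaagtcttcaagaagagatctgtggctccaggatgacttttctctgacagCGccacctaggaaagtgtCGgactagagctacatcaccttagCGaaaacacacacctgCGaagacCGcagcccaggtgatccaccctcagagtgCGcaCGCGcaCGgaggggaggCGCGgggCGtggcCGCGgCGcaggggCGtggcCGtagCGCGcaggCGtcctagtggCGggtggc
Ezh2: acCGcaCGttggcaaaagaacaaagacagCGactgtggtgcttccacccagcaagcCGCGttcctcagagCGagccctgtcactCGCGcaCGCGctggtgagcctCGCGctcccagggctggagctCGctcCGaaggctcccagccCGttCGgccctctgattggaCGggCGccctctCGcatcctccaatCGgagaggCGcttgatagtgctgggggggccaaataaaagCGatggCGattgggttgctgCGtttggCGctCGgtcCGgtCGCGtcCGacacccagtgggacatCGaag

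Polycomb genes did not move as 1 block. At 48 h, 13 members were higher and 12 lower than at 0 h (limma, FDR < 0.1), which is 41.9% and 38.7% of the members, beside 36.1% (higher) and 37.3% (lower) of all genes tested. The median log2 fold change of the members was 0.05 and that of all genes tested -0.02, and the median absolute change was 0.81 over the members and 0.63 over all genes tested. At 96 h, 10 were higher and 13 lower, beside 38.0% and 38.5% of all genes. Between these and the first hours the counts were 14 higher and 7 lower at 4 h (beside 24.7% and 23.8% of all genes), 13 and 7 at 8 h (beside 26.3% and 22.8%), 11 and 7 at 16 h (beside 28.0% and 25.3%), and 12 and 10 at 24 h (beside 31.2% and 30.7%). When the samples of each set of replicates were averaged first, 9 of the 14 and 1 of the 7 calls remained at 4 h. These were 29.0% and 3.23% of the members, beside 15.5% and 12.7% of all genes. At 8 h, 9 of the 13 and 4 of the 7 remained, 29.0% and 12.9% of the members, beside 16.9% and 13.3% of all genes. The EZH, RBBP, PHC, CBX and PCGF families have members that can take each other's place in a complex. In each of them, at least 1 paralogue was called higher at 48 h and at least 1 lower. The Polycomb-like genes were also split (*Phf1* and *Phf19* higher, *Mtf2* lower), but the 48 h samples of *Phf1* and *Mtf2* overlapped those at 0 h. Neither *Ring1* nor *Rnf2* was called at 48 h, and of *Rybp* and *Yaf2* only *Yaf2* was, as higher. How often other sets of genes of such sizes hold both directions was not tested. At 48 h, 11 of the 31 members were called higher without overlap with the 0 h samples, and 11 were called lower without overlap. Over all 15227 genes tested, 4484 (29.4%) and 4414 (29.0%) were called without overlap, out of 5497 and 5686 called. Against 0 h, each of the 31 members was called at 1 or more of the 7 later time points, as were 95.7% of all genes tested. A called change of at least 2-fold was seen at least once in 15 members (beside 51.4% of all genes), and one of at least 4-fold in 4 (beside 25.2%). *Phc1* fell past 4-fold, and *Phf19*, *Pcgf5* and *Yaf2* rose past it. Genes past 4-fold made up 8.48% (higher) and 7.09% (lower) of all genes at 48 h, when 2 members (*Phf19* and *Pcgf5*) and 1 member (*Phc1*) were, and 9.28% and 10.3% at 96 h, when 2 (*Pcgf5* and *Yaf2*) and 1 (*Phc1*) were.

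**Figure D1:**
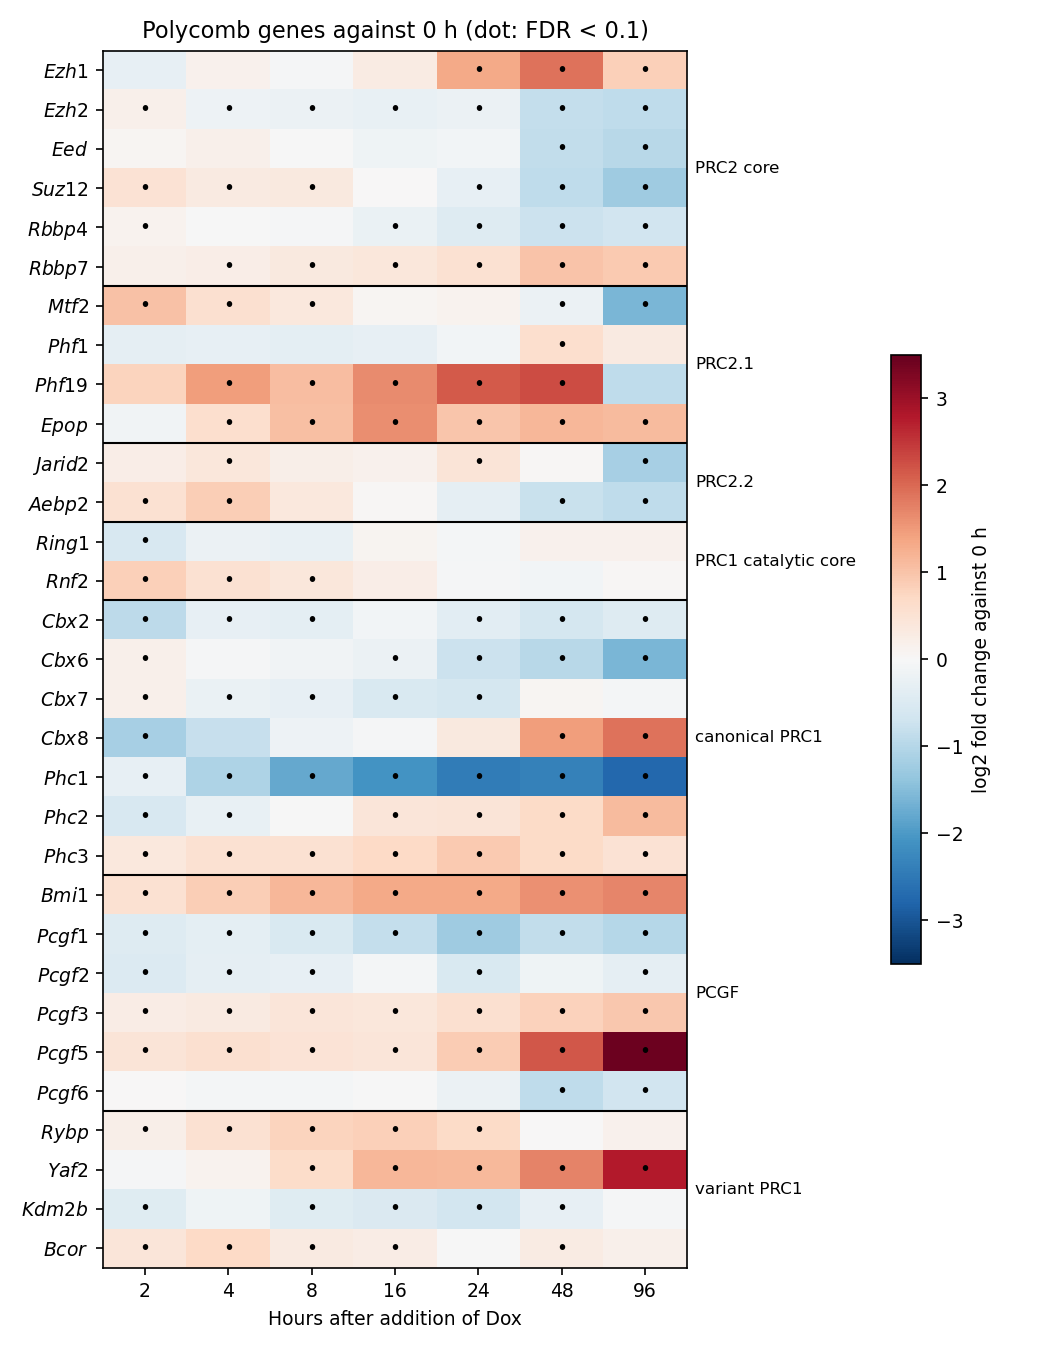
Log2 fold change against 0 h (colour, red higher, blue lower) of the 31 Polycomb genes (rows, grouped by complex) at the 7 later time points (columns, hours after addition of Dox), from means of 4 samples each; a dot marks FDR < 0.1. *Phc1* darkens to blue from 4 h on and reaches -2.76 at 96 h, and *Pcgf5* and *Yaf2* darken to red at the end, at 3.43 and 2.77.

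At 2 h, genes of both complexes had already moved. Against 0 h, 14 members were higher (45.2% of the members, beside 22.2% of all genes tested) and 8 were lower (25.8%, beside 22.6%). When the samples of each set were averaged first, 5 of the 14 (*Suz12*, *Mtf2*, *Rnf2*, *Bmi1* and *Bcor*) and 6 of the 8 (*Ring1*, *Cbx2*, *Phc2*, *Pcgf1*, *Pcgf2* and *Kdm2b*) kept their call. In that averaged fit, 16.1% (higher) and 19.4% (lower) of the members were called, beside 13.4% and 11.3% of all genes tested. The count of 14 fell to 9 without replicate 2 and to 8 without replicate 3. Of the 31 members, 8 had their highest mean at 2 h. Another 7 peaked in the 96 h samples, 5 were highest before Dox (0 h), and the rest peaked in between. The share of all genes tested with a peak at 2 h was not computed, so the 8 have no background to be read against.

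Among the members called higher at 2 h, *Mtf2*, *Rnf2* and *Bmi1* had the largest fold changes. *Mtf2* encodes a Polycomb-like protein that brings PRC2 to CpG-rich DNA. Its normalized counts in replicates 1 to 4 were 2650.0, 2743, 2881 and 2996 at 0 h and 6049.9, 6530.0, 5204 and 5406 at 2 h, so every 2 h sample lay above every 0 h sample. The log2 fold change was 1.04 ± 0.09 (SE; FDR = 1.8e-10). *Rnf2*, the main ubiquitin ligase subunit of PRC1 in ES cells, was at 1481, 1552, 1072 and 1196 at 0 h and at 2766, 2829, 1897 and 1986 at 2 h. Again the groups did not overlap, with replicates 1 and 2 the higher set at both times, and the log2 fold change was 0.83 ± 0.12 (FDR = 2.1e-06). *Bmi1* rose by 0.55 ± 0.13 (FDR = 0.0015), and its samples are given with the other PCGF genes.

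Among those called lower, *Cbx8*, *Cbx2* and *Ring1* had the largest, and all of these encode parts of PRC1. *Cbx2* encodes a CBX protein known for compacting chromatin. Its counts were 295, 318, 336 and 336 at 0 h and 157, 154, 186 and 187 at 2 h, with no overlap (log2 fold change -0.91 ± 0.10, FDR = 1.0e-08). *Ring1*, the minor ligase paralogue, was at 137, 106, 108 and 98.2 at 0 h and at 81.0, 82.3, 63.3 and 73.0 at 2 h, also without overlap (log2 fold change -0.57 ± 0.14, FDR = 0.0012). *Cbx8* was low, at 17.9, 25.8, 54.8 and 64.2 at 0 h and 9.35, 7.55, 23.4 and 32.8 at 2 h. Its groups overlapped, with replicates 3 and 4 higher than replicates 1 and 2 at both times. The change of -1.16 ± 0.42 passed the test (FDR = 0.027) but not after averaging within sets (FDR = 0.22). At 16 h, when neither gene was called against 0 h, *Cbx2* stood at 299 ± 23.9 (SD, n = 4) and *Ring1* at 119 ± 8.14.

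In the PRC2 core, 4 of the 6 genes were lower at 48 h and at 96 h and 2 were higher. *Ezh2*, which encodes the main H3K27 methyltransferase of dividing cells, was at 2164, 1997, 2089 and 2093 at 0 h and at 1247, 1296, 1076 and 1087 at 48 h. Every 48 h sample was below every 0 h sample. The log2 fold change was -0.83 ± 0.05 (FDR = 2.7e-14), and the mean stood at 1794 ± 75.1 at 24 h and 1176 ± 112 at 48 h (SD, n = 4). *Suz12*, the scaffold on which PRC2 is built, first rose from 2759, 3054, 3102 and 3135 to 4221, 4332, 4294 and 4363 at 2 h, then declined to 1783, 1911, 1363 and 1486 at 48 h and 1378, 1289, 1172 and 1217 at 96 h. All samples at 48 and 96 h lay below all samples at 0 h, and the log2 fold change at 96 h was -1.25 ± 0.08 (FDR = 3.7e-14). *Eed*, whose protein binds the methyl mark that PRC2 makes, fell by 0.86 ± 0.09 at 48 h and fell by 0.98 ± 0.09 at 96 h, with samples between 1221 and 1266 at 48 h and between 1969 and 2807 at 0 h.

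The 2 members of the core that rose each have a paralogue that fell. *Ezh1*, the methyltransferase more often linked to resting cells, was at 215, 229.6, 254 and 285 at 0 h and at 1068, 1115, 766 and 780.2 at 48 h. The groups were far apart, and replicates 1 and 2 were the higher set at 48 h. The log2 fold change was 1.90 ± 0.15 (FDR = 1.7e-12), 2.29 in replicates 1 and 2 alone and 1.52 in replicates 3 and 4 alone. At 96 h *Ezh1* had come down again to 470.1, 454, 393 and 429, below every 48 h sample but above every 0 h sample (log2 fold change from 48 to 96 h -1.07 ± 0.15, FDR = 6.9e-07).

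*Rbbp7* and *Rbbp4* encode closely related histone-binding proteins, either of which can serve in PRC2. *Rbbp7* went from 3698, 3307, 2524 and 2459 at 0 h to 7170.4, 6740.0, 5057 and 5029 at 48 h, and *Rbbp4* from 5081, 4825, 4793 and 4729 to 2987, 3022, 2757 and 2804. Neither gene's groups overlapped. *Rbbp7* rose by 1.00 ± 0.10 (FDR = 9.2e-10), whereas *Rbbp4* changed by -0.75 ± 0.04 (FDR = 1.5e-15). Both proteins also belong to other chromatin complexes, so these 2 genes are not specific to PRC2. The counting's strand setting is not given in the sources used here, and 8.94% of the exon bases of *Rbbp4* lie under *Sync* and 9.10% under *Gm26722*, both on the opposite strand. Smaller opposite-strand overlaps touch *Rbbp7* (5.98%, *Txlng*), *Eed* (6.82%, *E230029C05Rik*), *Mtf2* (6.93%, *Tmed5*) and *Kdm2b* (5.77%, *Rnf34*).

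Of 20 cell cycle genes, 8 were higher at 48 h and 10 lower, beside the 36.1% and 37.3% of all genes. All 6 MCM helicase genes were among the lower (*Mcm3*, -1.14 ± 0.06; *Mcm6*, -0.74 ± 0.06), as was *Pcna*, the replication clamp (-1.07 ± 0.09), while *Mki67* (1.18 ± 0.09) and *Ccna2* (0.75 ± 0.08) were higher. The part of cell cycle genes in the fall of *Ezh2*, *Eed*, *Suz12* and *Rbbp4* was not tested. In bulk samples, fewer cells of a type and less RNA per cell cannot be told apart.

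**Figure D2:**
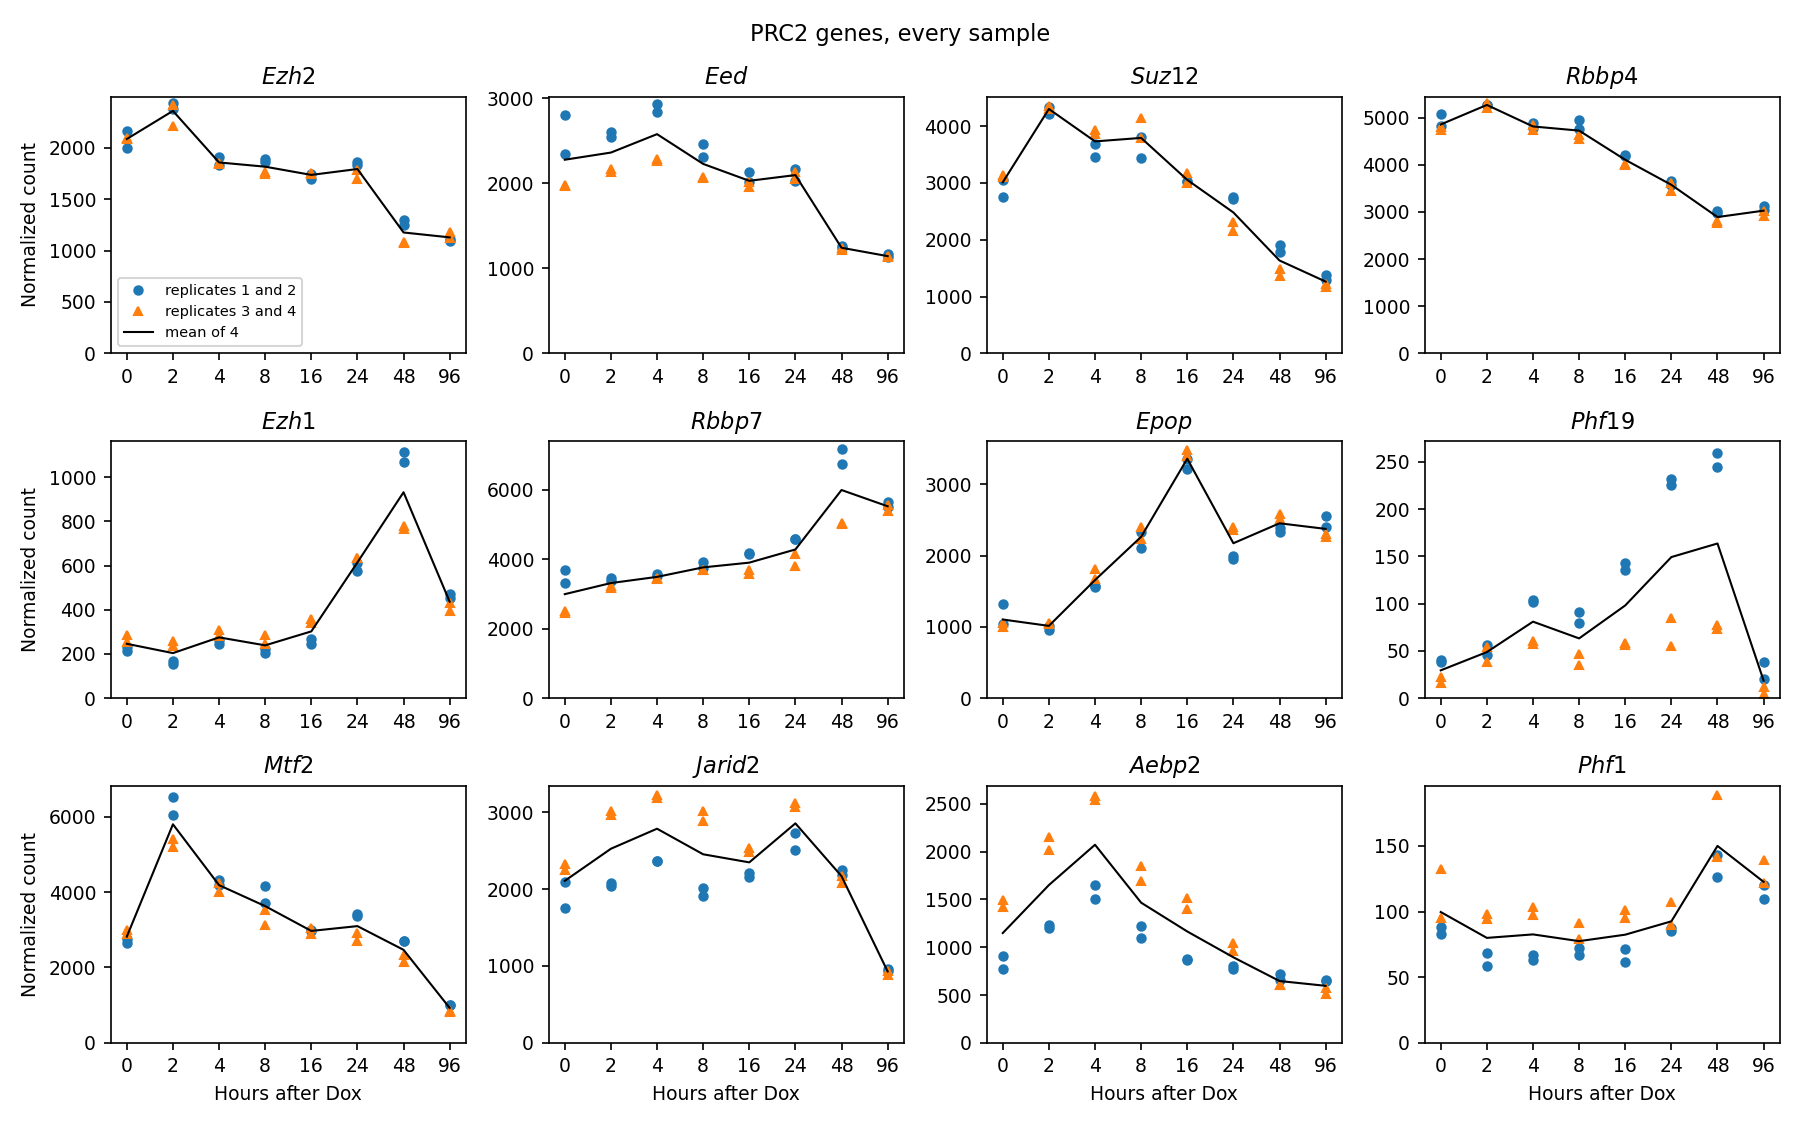
Normalized count (y axis, from 0, each gene on its own scale) of 12 PRC2 genes in every sample against time after addition of Dox (x axis, hours, spaced by order); circles are replicates 1 and 2, triangles replicates 3 and 4, and the line joins the means of 4. *Ezh2*, *Eed*, *Suz12* and *Rbbp4* are lowest at 48 and 96 h, *Ezh1* peaks at 48 h with a mean of 932, *Mtf2* peaks at 2 h with a mean of 5798, and the sets lie apart for *Phf19*, *Jarid2* and *Aebp2*.

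The accessory genes that define the 2 forms of PRC2, known as PRC2.1 and PRC2.2, had their highest means at different times. *Mtf2* was highest at 2 h and fell at the end: at 48 h its samples, 2694, 2706, 2145 and 2323, overlapped those at 0 h, and at 96 h they were 1011, 1011, 829.7 and 851, all lower (log2 fold change -1.61 ± 0.09, FDR = 5.0e-16). Its small change at 48 h, -0.20 ± 0.09, was -0.40 in replicates 3 and 4, whereas replicates 1 and 2 gave 0.0021. *Epop*, which joins PRC2.1 to elongin BC, climbed from 1314, 1046, 1049 and 1003 at 0 h to 3216, 3349, 3478 and 3392 at 16 h. It was at 2325, 2382, 2519 and 2585 at 48 h. None of these later samples overlapped with 0 h, and the log2 fold changes were 1.61 ± 0.08 (FDR = 4.3e-17) and 1.16 ± 0.08 (FDR = 2.5e-14).

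*Phf19*, the third Polycomb-like gene, was expressed at a low level that differed between the sets. Its counts were 40.0, 38.7, 16.1 and 22.7 at 0 h and 259, 245, 73.0 and 77.4 at 48 h. At both times replicates 1 and 2 were above replicates 3 and 4, and the 48 h samples were still all above the 0 h samples. The rise of 2.28 ± 0.51 (FDR = 2.5e-04) was 2.65 in one set and 1.92 in the other, and at 96 h the counts were 38.2, 20.0, 11.3 and 4.73, and from 48 to 96 h *Phf19* fell by 3.16 ± 0.51 (FDR = 8.1e-06). *Phf1*, at 88.3, 82.9, 95.1 and 132 at 0 h and 126, 143, 189 and 141 at 48 h, rose by 0.59 ± 0.19 (FDR = 0.0064) with overlapping groups. Its value is uncertain, since 39.3% of its exon bases lie under *Cuta* on the opposite strand.

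*Jarid2* and *Aebp2* define PRC2.2, the form that recognizes ubiquitin placed by PRC1. *Jarid2* stood at 1759.8, 2094, 2249 and 2327 at 0 h and at 2179, 2249.8, 2077 and 2165 at 48 h, before 933, 964, 936 and 881 at 96 h. The 0 and 48 h samples overlapped, and the 96 h samples were below both (log2 fold change at 96 h -1.17 ± 0.14, FDR = 7.4e-09). *Aebp2* rose by 0.86 ± 0.23 at 4 h (FDR = 0.0027) and fell by 0.78 ± 0.23 at 48 h (FDR = 0.0033). The fall was -0.28 in replicates 1 and 2 and -1.27 in replicates 3 and 4. At 0 h its counts were 908, 776, 1419 and 1492, and by 48 h they were 661, 719.8, 599.9 and 607, so that the sets lay apart at 0 h and closer together at 48 h.

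The genes of the catalytic core of PRC1 were called against 0 h up to 8 h (*Rnf2*) or at 2 h (*Ring1*) and at no later time. *Rnf2* was at 1270.1, 1283, 1119 and 1246 at 48 h and *Ring1* at 130.0, 96.1, 138 and 131, and both groups overlapped their 0 h samples. The log2 fold changes were -0.09 ± 0.12 (FDR = 0.50) and 0.14 ± 0.14 (FDR = 0.37), neither of which passed the test. Per kilobase of exon, *Rnf2* stood at 321 ± 55.3 normalized counts at 0 h and 298 ± 18.3 at 48 h, and *Ring1* at 34.6 ± 5.19 and 38.2 ± 5.81.

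*Phc1* carried the largest fall of any member against 0 h. It encodes a polyhomeotic protein whose SAM domain lets PRC1 particles join into larger bodies, and it lies at chr6:122317731-122340561, minus strand (GRCm38, GENCODE M21). The 0 h samples held 1841, 2097, 1971 and 2136 and the 2 h samples 1795, 1748, 1479.6 and 1541. The 4 h samples then held 1059, 928, 888 and 915 and the 8 h samples 602, 540.2, 582 and 581, each group lying wholly below the one before. It had lost 71.4% of its 0 h mean by 8 h, and at 48 h it was at 412, 379, 374 and 387 (log2 fold change -2.37 ± 0.11, FDR = 2.6e-18).

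Its paralogues were higher at 48 h. *Phc2* fell from 349, 360.1, 289 and 306 at 0 h to 232, 238, 199 and 218 at 2 h and then rose to 467, 541, 528 and 551 at 48 h and 722, 689, 723 and 658 at 96 h. None of the groups named here overlapped with 0 h, and the log2 fold changes were -0.55 ± 0.09 at 2 h (FDR = 1.7e-05) and 1.10 ± 0.09 at 96 h (FDR = 5.3e-12). *Phc3* was called higher at all 7 later time points, with changes between 0.36 and 0.92. Per kilobase of exon, *Phc1* made up 86.6% ± 0.696 (SD, n = 4) of the PHC transcripts at 0 h but 44.1% ± 2.64 at 48 h and then 32.5% ± 2.68 at 96 h, whereas *Phc2* made up 10.6% ± 1.34, 44.4% ± 2.36 and 57.5% ± 2.29. The summed PHC level was 438 ± 26.7 normalized counts per kilobase at 0 h and 166 ± 4.34 at 48 h (SD, n = 4).

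The CBX genes, which give canonical PRC1 its reader of H3K27 methylation, each followed a course of their own. *Cbx7*, the main CBX gene of ES cells, held 63.2% ± 2.81 of the transcripts of the 4 CBX members per kilobase at 0 h and 71.0% ± 1.83 at 48 h. Its counts went from 1506, 1755, 1522 and 1685 at 0 h to 1073, 1091, 1086 and 974 at 24 h and back to 1560.3, 1626, 1876 and 1733 by 48 h. From 4 to 24 h its groups stood clear of 0 h, with the largest change, -0.61 ± 0.07, at 24 h (FDR = 2.6e-08), and at 48 and 96 h they overlapped 0 h. *Cbx6* was called lower from 16 h on, and went from 598, 559.8, 639 and 679.9 at 0 h to 323, 301, 296 and 333 at 48 h and 212, 176, 223 and 209 at 96 h. There was no overlap with 0 h at either time (log2 fold change at 96 h -1.59 ± 0.08, FDR = 1.1e-17), and 5.31% of its exon bases are shared with *Npcd* on the same strand.

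*Cbx2* was again called lower from 24 h on, at 221, 183, 215 and 226 at 48 h, all under the 0 h samples (log2 fold change -0.61 ± 0.10, FDR = 2.6e-06). *Cbx8*, after its early fall, reached 89.5, 82.9, 116 and 117 at 48 h and 144, 153, 127 and 128 at 96 h, above all 0 h samples. The log2 fold change at 96 h was 1.91 ± 0.42 (FDR = 1.6e-04), 2.73 in replicates 1 and 2 and 1.09 in replicates 3 and 4, whose 0 h levels differed. Its share of the transcripts of the 4 CBX members per kilobase was 2.77% ± 1.43 at 0 h and 10.7% ± 0.370 at 96 h.

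**Figure D3:**
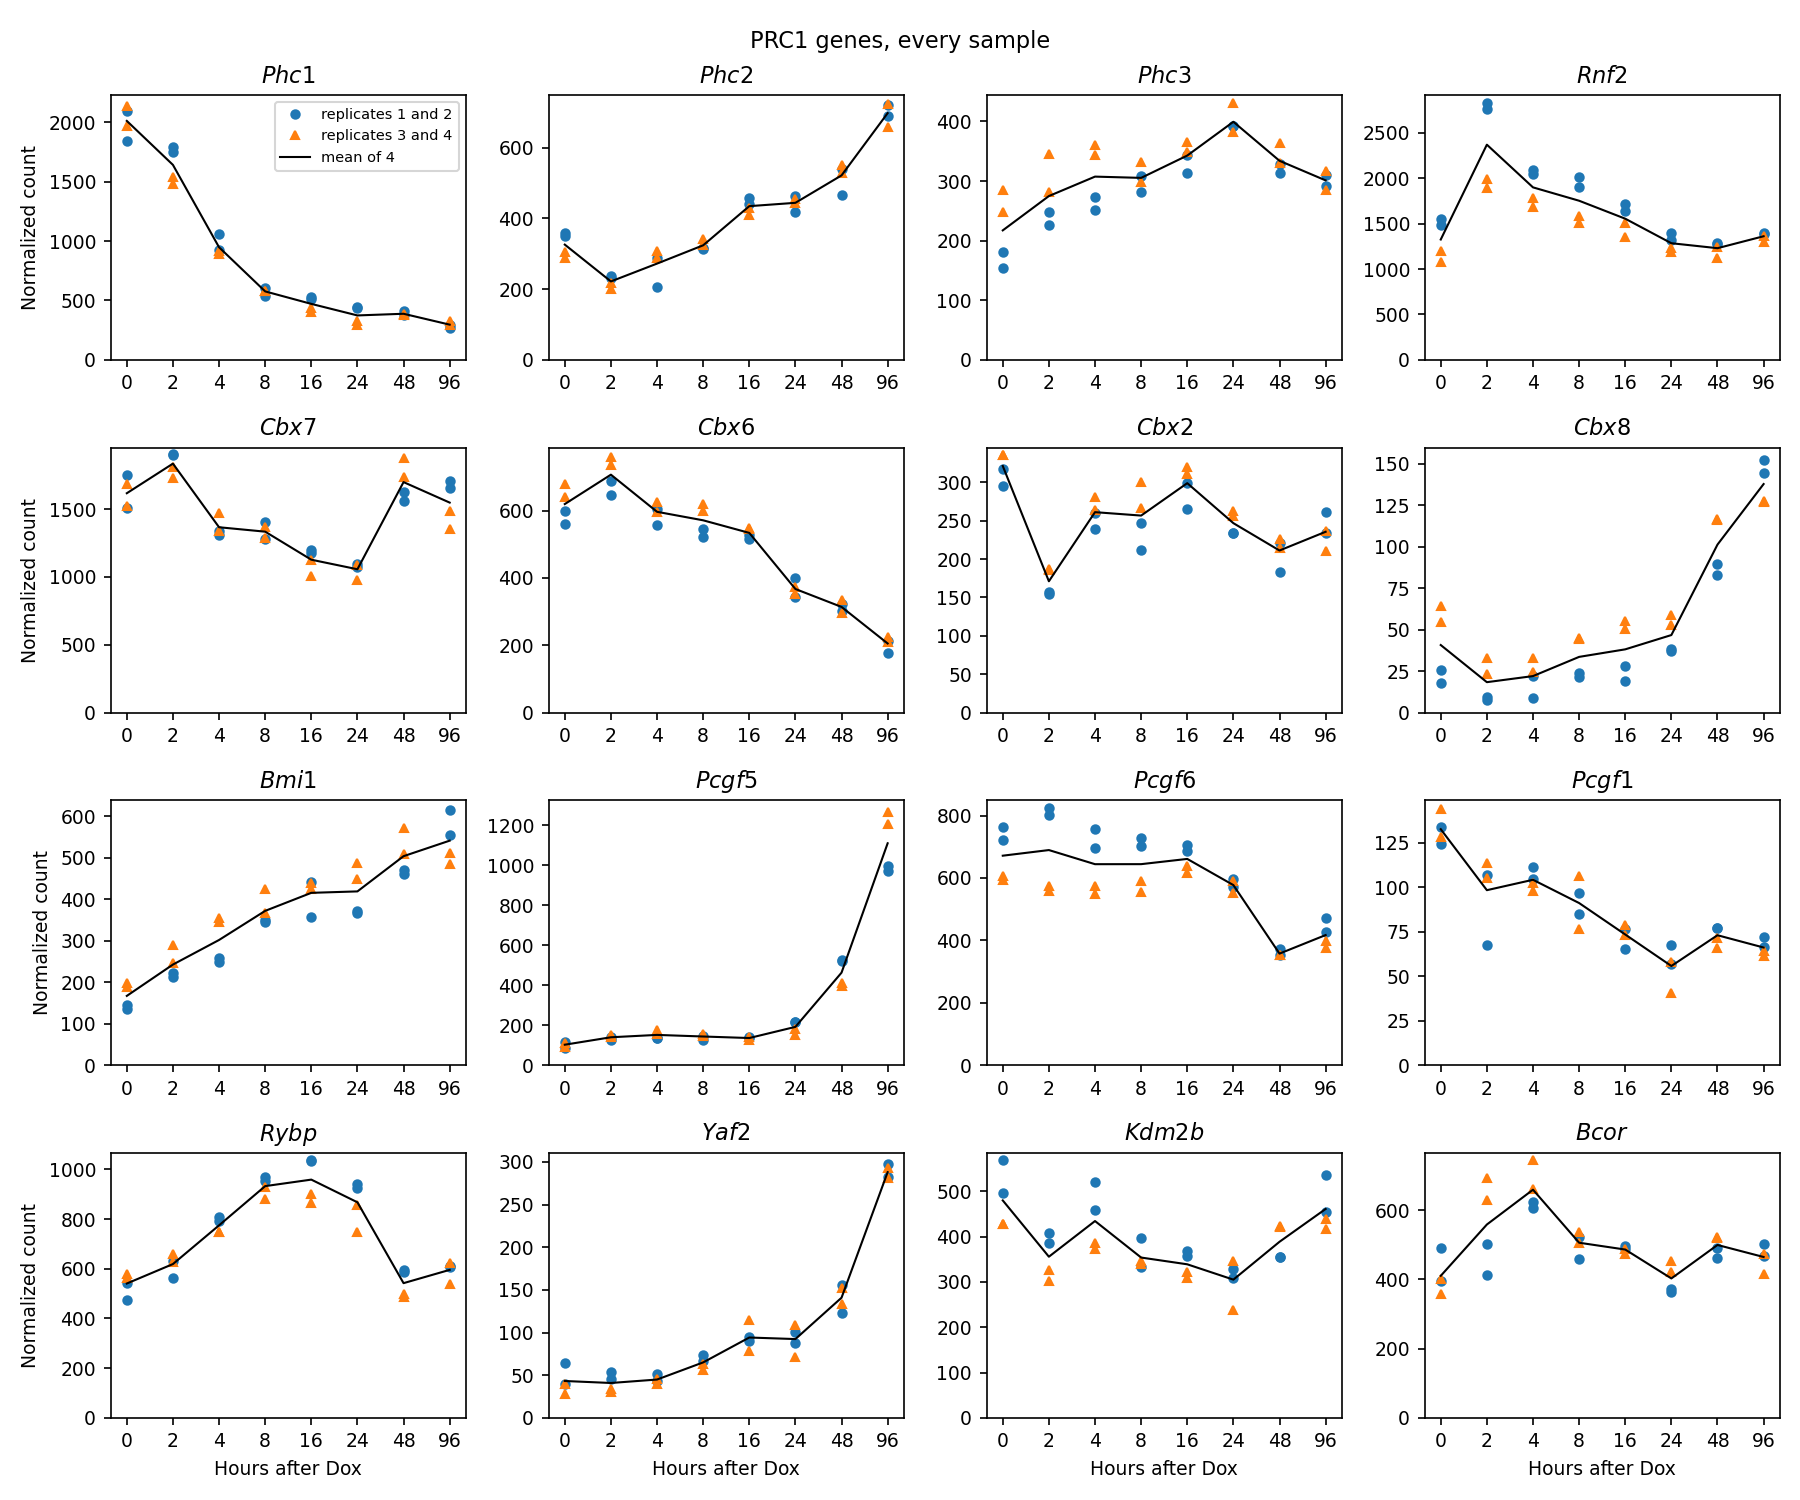
Normalized count (y axis, from 0, each gene on its own scale) of 16 PRC1 genes in every sample against time after addition of Dox (x axis, hours, spaced by order); circles are replicates 1 and 2, triangles replicates 3 and 4, and the line joins the means of 4. *Phc1* drops from 2011 at 0 h to 576 at 8 h, *Pcgf5* and *Yaf2* climb steeply after 24 h, *Rybp* is highest at 16 h, and *Cbx2* and *Cbx8* dip at 2 h.

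PCGF proteins decide which kind of PRC1 is built. *Pcgf5*, at chr19:36348309-36460970, plus strand, carried the largest rise of any member. Its protein forms a variant PRC1 that spreads H2A ubiquitin widely. The counts went from 117, 86.3, 92.7 and 113 at 0 h to 217, 217, 150.3 and 182 at 24 h. The 48 h samples then held 519, 528, 409 and 396 and the 96 h samples 996, 974, 1267 and 1205. Each group lay wholly above the one before, and the 96 h mean was 10.8 times the 0 h mean (log2 fold change 3.43 ± 0.13, FDR = 1.6e-20). *Pcgf3*, its closest relative, rose by 0.81 ± 0.07 at 48 h and by 0.94 ± 0.07 at 96 h.

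*Bmi1* and *Pcgf2* encode the PCGF proteins of canonical PRC1, and at 48 h *Bmi1* was called higher and *Pcgf2* was not called. *Bmi1* went from 135, 145, 199 and 189 at 0 h to 213, 222, 246 and 289 at 2 h. Its 48 h samples held 462, 471, 509 and 573 and its 96 h samples 614, 554, 511 and 485. Already the 2 h samples were all above the 0 h samples, and the log2 fold change at 96 h was 1.70 ± 0.13 (FDR = 9.8e-13). *Pcgf2* was at 429, 463, 518 and 535 at 0 h and 383, 413, 471 and 479.9 at 48 h, with overlap, and its change of -0.16 ± 0.09 missed the threshold (FDR = 0.11). It was called lower at 96 h, at -0.32 ± 0.09 (FDR = 0.0016). Per kilobase, *Bmi1* supplied 9.24% ± 1.51 of the PCGF transcripts at 0 h and 24.5% ± 2.07 at 96 h, while *Pcgf2* supplied 30.4% ± 2.16 and 19.8% ± 0.815.

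The other two PCGF genes were lower at 48 h. *Pcgf1*, the partner of KDM2B at CpG islands, was called lower at all 7 later times, with -0.85 ± 0.15 at 48 h and the largest change, -1.26 ± 0.15, at 24 h. *Pcgf6*, whose complex is known for silencing germ cell genes in ES cells, was not called before 48 h (671 ± 84.5 at 0 h, 661 ± 41.4 at 16 h) and fell by 0.90 ± 0.12 at 48 h (FDR = 6.8e-08). Its share of the PCGF transcripts per kilobase was 29.6% ± 4.60 at 0 h and 14.5% ± 0.792 at 48 h, that of *Pcgf1* 17.7% ± 0.865 and 9.01% ± 0.915, and that of *Pcgf5* 1.79% ± 0.267 and 7.47% ± 1.31. The summed PCGF level, 453 ± 14.3 at 0 h and 492 ± 15.2 at 48 h (SD, n = 4), showed a smaller relative difference than these shares.

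Variant PRC1 takes either RYBP or YAF2, related proteins that replace CBX on the ligase. *Rybp* was called higher from 2 to 24 h: it went from 476, 544, 577 and 565 at 0 h to 1035, 1038, 899 and 863 at 16 h, before 589, 594, 499.6 and 486 at 48 h. The 16 h samples were above those at both other times, and the 48 h samples overlapped those at 0 h (log2 fold change 0.82 ± 0.08 at 16 h, FDR = 1.2e-09). *Yaf2* went from 64.9, 40.1, 39.5 and 28.3 at 0 h to 155, 122, 134 and 152 at 48 h, then to 297, 282, 292 and 281 by 96 h, each group above the one before. Its log2 fold changes were 1.74 ± 0.19 (FDR = 1.7e-09) and 2.77 ± 0.19 (FDR = 3.3e-14), and its share of the pair per kilobase went from 16.8% ± 6.17 at 0 h to 39.7% ± 4.05 at 48 h and 55.1% ± 1.32 at 96 h.

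*Kdm2b*, which ties variant PRC1 to unmethylated CpG, fell by 0.66 ± 0.12 at 24 h (FDR = 3.5e-05) and was at -0.05 at 96 h, where it was not called (FDR = 0.70). *Bcor*, the corepressor subunit of the same complex, rose by 0.69 ± 0.11 at 4 h (FDR = 1.2e-05) and was 0.29 above 0 h at 48 h (FDR = 0.024). The 48 h calls of both were lost when samples were averaged within sets (FDR = 0.15 and 0.15).

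Ratios of paralogues within a sample depend little on the scaling for depth. For 8 such pairs, the log2 ratio at 48 h was compared with that at 0 h by two-sided exact permutation tests, adjusted over the 8 pairs. The smallest p that 4 samples against 4 allow is 0.029. The ratio of *Ezh1* to *Ezh2* went from -3.09 ± 0.19 at 0 h to -0.35 ± 0.15 at 48 h (SD, n = 4), that of *Phc2* to *Phc1* from -2.63 ± 0.19 to 0.43 ± 0.16, and that of *Rbbp7* to *Rbbp4* from -0.72 ± 0.25 to 1.03 ± 0.21. *Bmi1* to *Pcgf2* went from -1.55 ± 0.14 to 0.21 ± 0.07, and *Yaf2* to *Rybp* from -3.67 ± 0.59 to -1.94 ± 0.25. These pairs, together with *Phf1* to *Mtf2* (change 0.79) and *Cbx2* to *Cbx7* (change -0.68), had no overlap between the groups, and each reached an exact permutation p of 0.029 (adjusted p = 0.033). That test takes the 4 samples of a time point as exchangeable, although they formed 2 sets. The 8 pairs were also chosen with earlier results of these data known, which the p-values do not take into account. A sign-flip test with samples paired by replicate number gave each of these pairs p = 0.125, and a permutation test on set averages p = 0.333. Those are the smallest p-values these designs allow. *Ring1* to *Rnf2* changed by 0.23, with overlap (exact p = 0.257). 

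**Figure D4:**
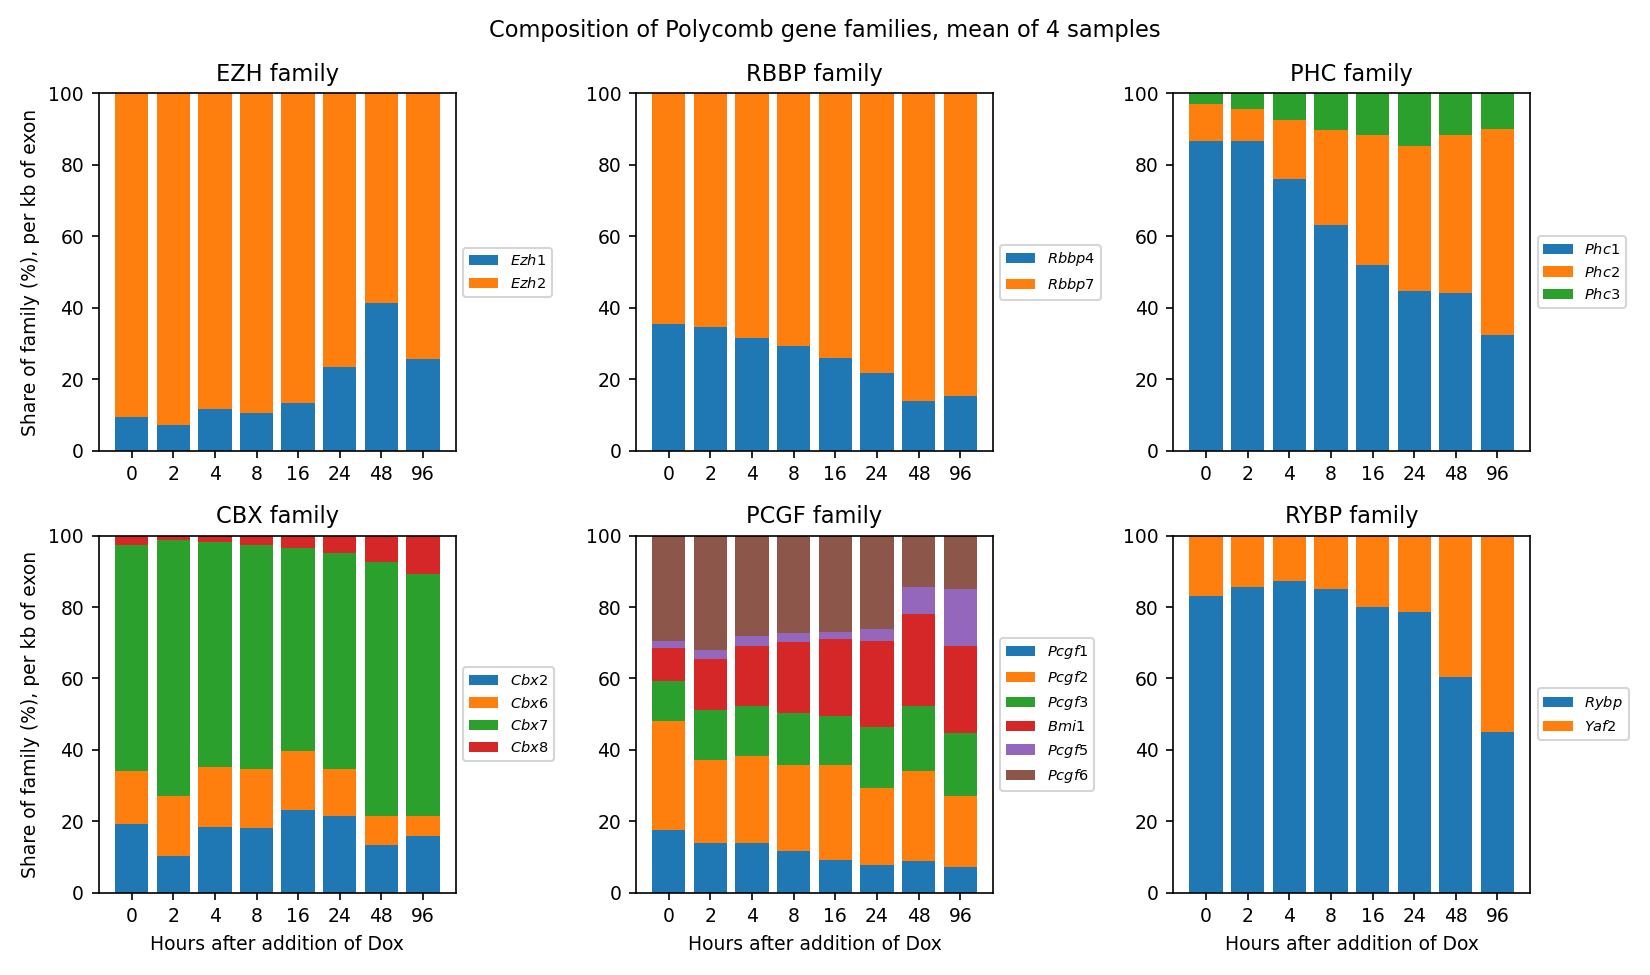
Share of each gene in its family (y axis, percent of the normalized counts per kilobase of exon, stacked bars adding to 100) against hours after addition of Dox (x axis), as means of 4 samples, with the CBX panel made of the 4 CBX members. *Ezh1* grows from 9.57% to 41.3% of the EZH pair by 48 h and is back at 25.8% at 96 h, while *Phc2*, *Yaf2*, *Rbbp7* and *Pcgf5* take larger shares at 96 h than at 0 h.

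Samples at 2 and 48 h were both in serum medium, but for different lengths of time since 2i, so that slower responses to leaving 2i remain within their contrast. It held 15 members that were higher at 48 h and 12 that were lower, beside 36.9% and 38.3% of all genes. Each of the PRC2 core genes was called in the direction it had against 0 h: *Ezh2* at -1.01 ± 0.05, *Suz12* at -1.41 ± 0.08, *Eed* at -0.92 ± 0.09, *Rbbp4* at -0.87 ± 0.04, *Ezh1* with a 48 h mean 4.57 times that at 2 h, and *Rbbp7* at 0.84 ± 0.10. *Phc1* (-2.07 ± 0.11), *Pcgf5* (1.71 ± 0.13) and *Yaf2* (1.79 ± 0.19) were likewise called. *Cbx2* differed in sign between the contrasts, at 0.30 ± 0.10 against 2 h (FDR = 0.0068), and had its lowest mean at 2 h. The 2 contrasts share the 48 h samples, and Dox was present at 2 h and gone at 48 h.

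Between successive time points, more members were called from 24 to 48 h than in any other step, 15 higher and 11 lower. All genes tested were also called most often in this step (29.8% higher, 27.8% lower). When sets were averaged, 8 and 7 members kept their call (25.8% and 22.6% of the members). The shares of all genes in the averaged fit were not compared for the steps given here. From 8 to 16 h, across the removal of Dox, 4 were higher (beside 9.44%) and 5 lower (beside 10.6%). The 4 were *Epop*, *Ring1*, *Phc2* and *Yaf2*, and the 5 were *Suz12*, *Rbbp4*, *Mtf2*, *Cbx7* and *Phc1*, with 1 and 0 calls kept when sets were averaged. From 48 to 96 h, 4 were higher (*Phc2*, *Pcgf5*, *Yaf2* and *Kdm2b*, beside 27.3%) and 7 lower (beside 27.2%), among them *Mtf2* at -1.41 ± 0.09 and *Jarid2* at -1.22 ± 0.14.

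A further 38 genes linked to Polycomb were taken from a list of partners, of which 36 passed the filter and had a matching symbol. At 2 h, 11 were higher and 4 lower, beside the 22.2% and 22.6% of all genes. At 48 h, 13 were higher and 19 lower, beside the 36.1% and 37.3% of all genes, and the 13 became 8 when sets were averaged. The share of all genes in that averaged fit was not compared. Among the 19 partners of variant PRC1, 3 were higher at 48 h and 13 lower, whereas the 9 genes of the PR-DUB complex, which removes the PRC1 mark, divided into 4 higher and 5 lower. The genes with the largest changes at 48 h were *Sfmbt2*, an imprinted Polycomb partner, at 131 ± 36.7 at 0 h and 1406 ± 86.7 at 48 h (3.46 ± 0.19, FDR = 2.7e-16), and *Lcor* (1.42 ± 0.17) and *Lcorl* (1.29 ± 0.14), which give rise to PALI proteins of PRC2.1. On the lower side were *Auts2* (-1.77 ± 0.26) and *Fbrsl1* (-1.55 ± 0.17), partners of PCGF3 and PCGF5, *Wdr5* (-1.67 ± 0.06), a partner of PCGF6 that also serves activating methyltransferases, and *Bcorl1* (-1.26 ± 0.21). *Asxl3* went from 13.4 ± 7.20 to 1.25 ± 1.96 normalized counts, too low at 48 h for a fold change. The H3K27 demethylase genes *Kdm6a* and *Kdm6b* both rose at 2 h, by 1.09 ± 0.08 and 1.28 ± 0.13, and were 0.46 ± 0.08 and 0.76 ± 0.13 above 0 h at 48 h.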

How the data were processed

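RNA was poly(A)-selected and sequenced as stranded single-end libraries. Per the labels and the study's methods, the authors checked reads with FastQC 0.11.8, trimmed for quality (cutadapt 2.7), mapped to GRCm38.p6 (HISAT2 2.1.0) and counted reads in GENCODE genes (featureCounts of Subread 1.6.4). The authors deposited the counts as log2-scale values, scaled by library and variance-stabilized in DESeq2. Inverting the transformation gave whole reads for 100% of the values (tolerance 0.001).

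For testing, 4 or more samples had to reach a normalized count of 10. The values were fitted as log2(normalized count + 1) by limma 3.58.1 (R 4.3.3; eBayes with trend) over all 32 samples, with Benjamini-Hochberg adjustment over all 15227 genes. Fold changes on this scale understate changes of low genes. Members were called at FDR < 0.1, and also with the study's 4-fold threshold. Exact permutation tests used scipy 1.17.1. The procedure was run on simulated data for 48 h against 0 h alone. Those data were drawn without sets of replicates, so the run cannot show how the sets affect the calls. Lengths and coordinates are from GENCODE M21 (GRCm38), a later release than the authors' own.

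Members, lists and tests were chosen with earlier results of these data known. Sample values are given for members called with at least 2-fold at 48 or 96 h and no overlap with 0 h, for both genes of 8 ratios, and for the 3 largest rises and falls at 2 h. Partner genes are named if called with at least 2-fold at 48 h, up to 8 by size, and the samples of *Eed* and *Aebp2*, both demethylases and the cell cycle genes named were chosen after their values were seen. Same-numbered samples deviated together (mean correlation 0.196, lowest pair -0.043), to the same degree as differently numbered samples within a set (0.196), and were not treated as pairs. A further gene is not reported here. Alternatives covered pseudocount, filter, scaling, blocks, sets, samples fitted, FDR, tool and left-out replicates.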

Additional observations from a re-analysis of the deposited data

Results flagged for a closer look

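Among 248 groups of 4 samples (31 members at 8 time points), 4 held a sample that stood apart from the other 3 by Dixon's criterion at 95%, when chance alone gives about 1 group in 20. At 16 h, 1 sample of *Suz12* was at 3179 and the nearest at 3028. At 0 h, *Epop* was at 1314 in replicate 1 and at 1049 in the nearest sample. *Cbx7* was at 974 in 1 sample at 24 h, below the nearest at 1073. *Pcgf6* was at 373 in replicate 1 at 48 h, above the nearest at 353.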

How the results depend on the processing

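Members higher at 2 h against 0 h numbered 14, and 5 after averaging within sets, 9 with only the 2 time points in the fit, and between 8 and 12 when 1 replicate was left out. Averaging within sets also left 9 of 14 members higher at 4 h, 1 of 7 lower at 4 h, 4 of 7 lower at 8 h, and 8 of 13 other Polycomb-linked genes higher at 48 h, where the averaged fit has fewer samples. With the replicate number as a block (replicate block), 17 members were higher and 10 lower at 2 h, and 13 and 13 at 48 h. The shares of all genes called in the blocked fit were not compared. The replicate numbers share a set but did not pair samples further, and the block moved no count of members against 0 h by over 1.5 times. Of 2108 single fold changes under alternatives, 1980 kept direction and call, 69 lost their call, 55 gained one and 4 reversed, all of them within single sets: *Mtf2* at 48 h, 0.0021 in replicates 1 and 2 alone; *Jarid2* at 48 h, -0.11 in replicates 3 and 4 alone; *Rnf2* at 96 h, -0.13 in replicates 1 and 2 alone; and *Rybp* at 48 h, -0.21 in replicates 3 and 4 alone. The cause was not tested. Fitting the recovered reads with limma-voom called 5500 higher and 5614 lower genes at 48 h in place of 5497 and 5686. Scaling by TMM in place of the deposited scaling changed none of the single calls (ratio of the scalings 0.988 to 1.01). Exact tests of ratios cannot reach 0.05 with 3 samples against 3 (smallest p = 0.10) or 2 against 2 (0.333), so those settings were read by value, and all ratios kept their direction. Depth limits the members with the lowest counts, *Phf19* and *Cbx8*, most.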
